A study of Danio rerio with 27 samples.

Results

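The genes described here handle iron, copper and haem: hamp, hp, hpx, cp, tfa, tfr2, slc40a1, meltf and fth1a. They were picked by symbol, and 8 of the 9 symbols stand in the gene column of a count table with 39988 entries; hpx does not, and is left out. RNA from pools of entire zebrafish larvae, taken 21 days after fertilisation, was read from the 3′ ends of its transcripts, with 1 library for each pool. PY larvae carry a p53 knockout (P53KO) and an lf:YAP transgene that overexpresses the growth coactivator YAP in the liver throughout, and the labels describe them as tumour-burdened and cachectic (wasting). WT larvae carry neither, so the parts that p53 loss, YAP, tumour and wasting take in a PY difference cannot be told apart. All 6 groups, controls included, were injected as embryos with CRISPR/Cas9 and guides to SLC45a2, a gene used as a pigmentation marker. The groups are PY TGR5-KO, PY CYP7a1-KO and PY SLC45a2-KO with 5 libraries each, and WT TGR5-KO, WT CYP7a1-KO and WT SLC45a2-KO with 4 each. TGR5-KO larvae also received guides to TGR5, a bile acid receptor (gene gpbar1), CYP7a1-KO larvae received guides to CYP7a1, which catalyses a step of the classical bile acid pathway, and SLC45a2-KO larvae received neither. Injected animals can be mosaic, and the sources used here give neither the editing rate nor the number of larvae per pool.

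Iron circulates bound to transferrin, enters cells through transferrin receptors, is stored in ferritin and leaves through ferroportin, which needs a copper-dependent ferroxidase such as ceruloplasmin to load iron onto transferrin. Hepcidin, a peptide hormone of the liver, closes this loop by binding ferroportin and having it degraded. In mammals, hepcidin transcription answers to iron through BMP and SMAD signalling, with TFR2 as a sensor, and to inflammation through IL-6 and STAT3. Haptoglobin and haemopexin clear haemoglobin and haem that leak from broken red cells, and both are acute-phase proteins of the mammalian liver, as ceruloplasmin and hepcidin are.

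Library depth was 3377345 to 6238251 counts, with a median of 4533099. A count of 0 allows up to 3 counts, or 0.481 to 0.888 CPM (counts scaled to a common library size), by counting error only. Levels are CPM scaled by TMM factors, with SD over libraries, and changes are log2 values with their SE from a fit of edgeR to all 27 libraries. Since 3′ tag counts depend on each transcript's end, levels are not compared between genes. Replicates are separate pools by their labels, and nothing says how far the pools were raised apart. The targeted transcripts do not check the labels, because guide positions are not given: slc45a2 and gpbar1 had at most 8 counts in any library, and cyp7a1 stood at 44.7 ± 9.29 CPM in WT CYP7a1-KO larvae, against 2.40 ± 1.68 CPM in WT SLC45a2-KO larvae. In WT TGR5-KO larvae cyp7a1 stood at 30.0 ± 7.60 CPM. In PY it stood at 12.9, 12.3 and 8.6 CPM with TGR5-KO, CYP7a1-KO and SLC45a2-KO. Libraries 1 and 2 of PY CYP7a1-KO stood apart from the other 3 of their group, and the direction of no member outside slc40a1 turned when both were left out.

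The members differed most between backgrounds. Hepcidin, haptoglobin and ceruloplasmin transcripts were far higher in PY than in WT larvae with each set of guides, and melanotransferrin was far lower. Transferrin, ferroportin and ferritin heavy chain stayed at similar levels in most groups. Within PY, levels of cp and tfr2 were lower, and that of meltf higher, with both knockouts than with SLC45a2-KO. Against WT larvae with the same guides, however, the PY difference with CYP7a1-KO was not smaller than with SLC45a2-KO for cp or tfr2. On the log2 scale it was 4.65 ± 0.18 against 3.78 ± 0.17 for cp, and 2.31 ± 0.49 against 1.98 ± 0.42 for tfr2. Both genes had their lowest mean in WT CYP7a1-KO. With TGR5-KO the PY difference was smaller, at 3.00 ± 0.17 for cp and 0.51 ± 0.43 for tfr2. The members were chosen with these values known, so their values are a description and carry no p.

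**Figure D1:**
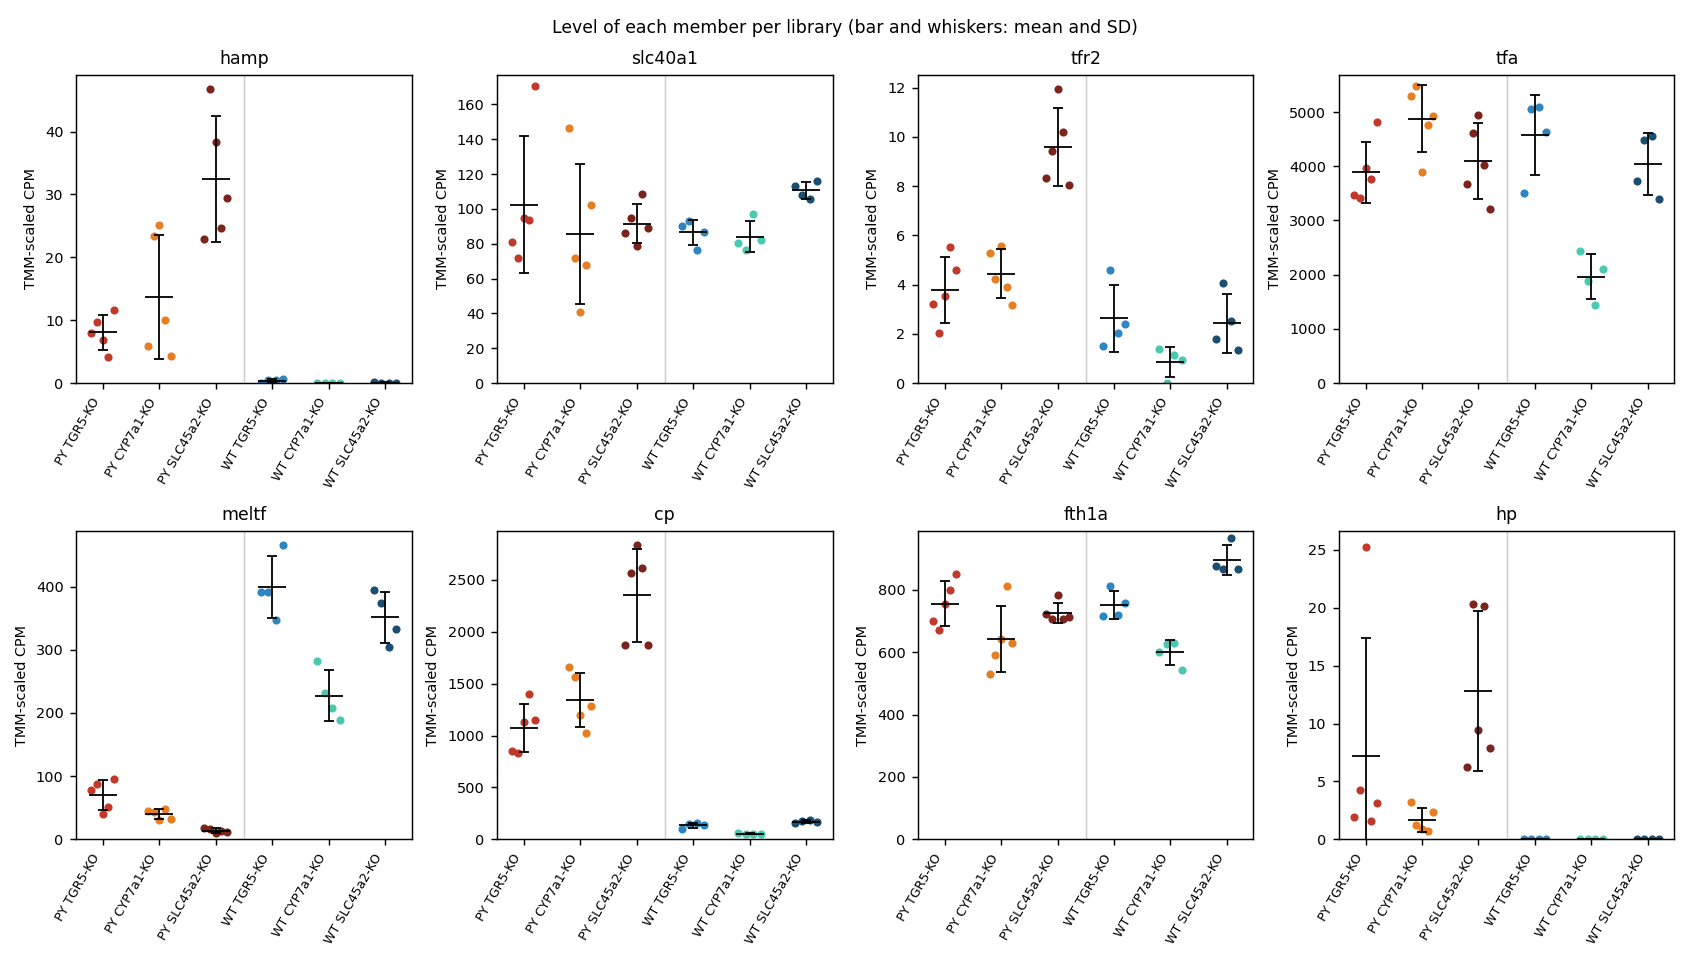
Level of each member in every library, in TMM-scaled CPM on linear axes that start at 0, with groups along the horizontal axis, points for libraries, and a bar with whiskers for the mean and SD (the lower whisker of hp in PY TGR5-KO is cut off at 0). The cp, hamp and hp points of PY larvae lie above those of WT larvae, the meltf points lie below, and tfa stands apart only in WT CYP7a1-KO, at 1964 ± 415 CPM.

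Hepcidin (hamp) was nearly confined to PY libraries. The 5 PY TGR5-KO libraries held 7.90, 9.71, 6.81, 4.21 and 11.6 CPM, the 5 PY CYP7a1-KO libraries 5.83, 23.3, 25.1, 9.98 and 4.34 CPM, and the 5 PY SLC45a2-KO libraries 22.9, 46.8, 38.3, 24.6 and 29.5 CPM. The 12 WT libraries held 8 counts between them: 0, 2, 2 and 3 in TGR5-KO, 0 in each of the 4 CYP7a1-KO libraries, and 1 in a single SLC45a2-KO library. No PY library overlapped a WT library. With SLC45a2-KO, 709 counts in PY against 1 in WT gave a ratio of 633 (exact 95% counting interval 113 to 25020). With CYP7a1-KO, 294 counts in PY against 0 in WT put hamp at least 90.5-fold higher in PY, taking 3 counts over the WT group as the floor. With TGR5-KO, hamp was 19.9-fold higher in PY by edgeR (log2 4.32 ± 0.65). This is another measure than the count ratio and the bound, and edgeR gave 409-fold with SLC45a2-KO.

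Within PY, the level of hamp was lower with both knockouts. TGR5-KO larvae averaged 8.06 ± 2.83 CPM and SLC45a2-KO larvae 32.4 ± 10.02 CPM (SD, n = 5 each), a log2 change of -2.001 ± 0.38, and the groups did not overlap. CYP7a1-KO larvae averaged 13.7 ± 9.82 CPM, a log2 change of -1.25 ± 0.36 from SLC45a2-KO. Here the groups overlapped, since CYP7a1-KO libraries 2 and 3 reached the level of the lowest SLC45a2-KO libraries while the other 3 lay at or below 9.98 CPM.

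Ferroportin (slc40a1), the iron exporter that hepcidin acts on, differed little between groups at the transcript level. Its mean was 102 ± 39.4 CPM in PY TGR5-KO, 85.7 ± 40.2 CPM in PY CYP7a1-KO and 91.4 ± 11.3 CPM in PY SLC45a2-KO, against 86.5 ± 7.10, 84.1 ± 9.06 and 110.7 ± 4.66 CPM in WT TGR5-KO, WT CYP7a1-KO and WT SLC45a2-KO. No pair of backgrounds with the same guides was free of overlap, and the PY-minus-WT changes were 0.24 ± 0.24 with TGR5-KO, 0.02 ± 0.24 with CYP7a1-KO and -0.28 ± 0.24 with SLC45a2-KO. PY TGR5-KO library 5 held 171 CPM, against 71.6 to 94.6 CPM in the other 4; without it the group averaged 85.2 ± 11.1 CPM and the PY-minus-WT change was -0.01. Leaving out PY CYP7a1-KO libraries 1 and 2 likewise gave -0.27 with CYP7a1-KO. Within WT, all libraries of both knockouts lay below all SLC45a2-KO libraries, by 0.36 ± 0.25 for TGR5-KO and 0.40 ± 0.25 for CYP7a1-KO on the log2 scale, which is less than 2 SE. That SE rests on a spread shared by all 27 libraries. The SD was 4.66 to 9.06 CPM in the WT groups, but 39.4 and 40.2 CPM in the PY knockout groups. Hepcidin acts on ferroportin protein, which these counts do not measure.

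Transferrin receptor 2 (tfr2), the liver's iron sensor in mammals, was a low transcript with its highest level in PY SLC45a2-KO. PY TGR5-KO libraries held 3.20, 2.03, 3.53, 5.52 and 4.61 CPM and PY CYP7a1-KO libraries 5.30, 4.24, 5.58, 3.92 and 3.15 CPM, against 8.32, 9.43, 11.9, 10.2 and 8.06 CPM in PY SLC45a2-KO libraries. All libraries of both knockouts lay below the SLC45a2-KO libraries, with log2 changes of -1.34 ± 0.38 and -1.11 ± 0.37. Means in WT were 2.64 ± 1.36 CPM in TGR5-KO, 0.870 ± 0.606 CPM in CYP7a1-KO and 2.42 ± 1.20 CPM in SLC45a2-KO. PY exceeded WT without overlap by 1.98 ± 0.42 with SLC45a2-KO and by 2.31 ± 0.49 with CYP7a1-KO, while with TGR5-KO the change was 0.51 ± 0.43 and the libraries overlapped. Counts behind these values were low, from 9 to 48 per PY library and from 0 to 20 per WT library.

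Transferrin (tfa), the iron carrier of plasma, was level across 5 of the 6 groups and low in the remaining group. WT CYP7a1-KO libraries held 2430, 1875, 1443 and 2107 CPM, against 3720, 4482, 4550 and 3391 CPM in WT SLC45a2-KO libraries. Every library of the first group lay below every library of the second, and below all 23 libraries elsewhere; the change was -1.04 ± 0.15. CYP7a1-KO in PY gave 4872 ± 618 CPM against 4092 ± 703 CPM in PY SLC45a2-KO, a change of 0.25 ± 0.13 with overlap. The PY-minus-WT change was therefore 1.31 ± 0.14 with CYP7a1-KO, against 0.02 ± 0.14 with SLC45a2-KO and -0.24 ± 0.14 with TGR5-KO, where the libraries overlapped.

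Melanotransferrin (meltf), a membrane-anchored relative of transferrin that binds iron in mammals, was lower in PY where ceruloplasmin was higher, although in WT both were lower with CYP7a1-KO. PY TGR5-KO libraries held 78.6, 86.8, 39.6, 51.0 and 96.0 CPM, PY CYP7a1-KO libraries 44.6, 42.7, 30.5, 47.8 and 31.4 CPM, and PY SLC45a2-KO libraries 17.6, 16.8, 9.21, 12.99 and 12.3 CPM. WT TGR5-KO libraries held 391.9, 391.7, 346.8 and 465.3 CPM, WT CYP7a1-KO libraries 282, 232, 208 and 188 CPM, and WT SLC45a2-KO libraries 394, 374, 304 and 332 CPM. All PY libraries lay below all WT libraries. The level in PY was 5.66-fold lower with TGR5-KO, 5.78-fold lower with CYP7a1-KO (log2 -2.53 ± 0.19) and 25.4-fold lower with SLC45a2-KO (-4.66 ± 0.21). Within PY, both knockouts lay above SLC45a2-KO without overlap, TGR5-KO 5.09-fold (2.35 ± 0.20) and CYP7a1-KO 2.84-fold (1.51 ± 0.20). Within WT, CYP7a1-KO lay below SLC45a2-KO without overlap (-0.63 ± 0.19), and TGR5-KO overlapped it (0.18 ± 0.19).

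Ceruloplasmin (cp), the copper-carrying ferroxidase of plasma, differed between backgrounds with every set of guides. PY TGR5-KO libraries held 849, 835, 1133, 1397 and 1148 CPM, PY CYP7a1-KO libraries 1657, 1563, 1201, 1022 and 1284 CPM, and PY SLC45a2-KO libraries 1869, 2570, 2834, 2615 and 1873 CPM. WT TGR5-KO libraries held 95.4, 148.2, 153.8 and 138 CPM, WT CYP7a1-KO libraries 58.7, 53.0, 52.3 and 50.7 CPM, and WT SLC45a2-KO libraries 154.6, 181, 183 and 166.3 CPM. The lowest PY library was thus above the highest WT library, and in order of level the groups ran PY SLC45a2-KO, PY CYP7a1-KO, PY TGR5-KO, WT SLC45a2-KO, WT TGR5-KO and WT CYP7a1-KO. Among neighbours in that order, PY CYP7a1-KO and PY TGR5-KO alone overlapped.

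PY exceeded WT in cp by 3.00 ± 0.17 on the log2 scale with TGR5-KO, by 4.65 ± 0.18 (25.1-fold) with CYP7a1-KO and by 3.78 ± 0.17 (13.7-fold) with SLC45a2-KO. Against the mean of the 3 WT groups in place of WT SLC45a2-KO, the last of these was 4.46, since the other WT groups were lower. Each knockout was below SLC45a2-KO in each background: in PY by -1.13 ± 0.14 for TGR5-KO and -0.81 ± 0.14 for CYP7a1-KO, and in WT by -0.35 ± 0.16 for TGR5-KO and -1.67 ± 0.17 for CYP7a1-KO.

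Ferritin heavy chain (fth1a), the iron-oxidising subunit of the storage shell, differed little between groups. Its means were 756 ± 72.9, 642 ± 105 and 726 ± 32.3 CPM in PY TGR5-KO, PY CYP7a1-KO and PY SLC45a2-KO, against 752 ± 44.0, 599.9 ± 39.3 and 896 ± 48.5 CPM in WT TGR5-KO, WT CYP7a1-KO and WT SLC45a2-KO. Libraries did not overlap in 3 comparisons: PY against WT with SLC45a2-KO (-0.30 ± 0.11), TGR5-KO in WT (-0.25 ± 0.12) and CYP7a1-KO in WT (-0.58 ± 0.12). All 3 use the WT SLC45a2-KO libraries. Against the mean of the 3 WT groups the first of them was -0.03.

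Haptoglobin (hp), which binds free haemoglobin, had no count in any of the 12 WT libraries. PY TGR5-KO libraries held 1.92, 4.29, 25.2, 1.58 and 3.15 CPM (9, 19, 100, 6 and 13 counts), PY CYP7a1-KO libraries 3.18, 1.21, 0.858, 0.713 and 2.37 CPM (12, 4, 4, 4 and 12 counts), and PY SLC45a2-KO libraries 6.24, 20.3, 9.46, 20.2 and 7.84 CPM (27, 99, 38, 73 and 37 counts). Taking 3 counts over each WT group as the floor, hp was at least 43.0-fold higher in PY with TGR5-KO, 11.1-fold with CYP7a1-KO and 81.5-fold with SLC45a2-KO. Within PY, CYP7a1-KO lay below SLC45a2-KO without overlap, at -2.94 ± 0.77. The TGR5-KO value rested on library 3: the change was -0.83 ± 0.67 with it, and -2.21 without it, when the group averaged 2.74 ± 1.24 CPM and hp was at least 17.0-fold higher than in WT.

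No entry is named hpx, but RefSeq lists that name as a synonym of hpxa, and hbxb is described there as haemopexin b. Both were looked at after the members' values were seen. The pair did not run together: hpxa averaged 13.9 ± 20.3 CPM in PY TGR5-KO, 0.735 ± 0.779 CPM in PY CYP7a1-KO and 3.85 ± 4.47 CPM in PY SLC45a2-KO, against 21.1 ± 10.3, 31.0 ± 18.0 and 65.7 ± 22.5 CPM in WT TGR5-KO, WT CYP7a1-KO and WT SLC45a2-KO. By contrast, hbxb averaged 23.9 ± 8.70, 24.9 ± 9.17 and 71.7 ± 28.6 CPM in the same PY groups, against 9.89 ± 2.66, 9.83 ± 1.92 and 15.7 ± 3.83 CPM in the same WT groups. Thus the mean of hpxa was lower in PY and that of hbxb higher with each set of guides, but with TGR5-KO the libraries overlapped for both. The library that was high in hp, PY TGR5-KO library 3, was also the highest of its group in hpxa, at 50.0 CPM. It lay above all WT TGR5-KO libraries (7.39 to 31.8 CPM), and without it its group averaged 4.82 ± 2.80 CPM.

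**Figure D2:**
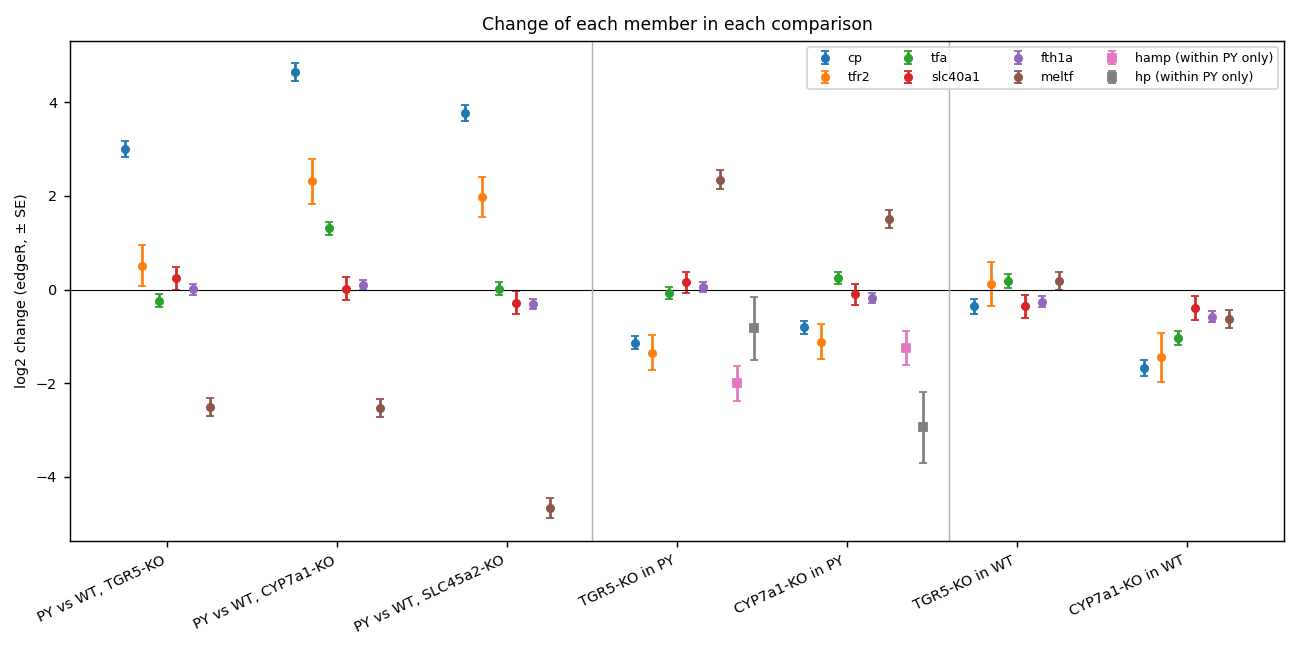
Log2 change of each member (points, with SE as whiskers) in each of the 7 comparisons between groups along the horizontal axis, from edgeR; hamp and hp are drawn within PY only, since WT had counts near or at 0. The cp points lie above 0 in the PY-minus-WT comparisons and below 0 in the knockout comparisons, and meltf lies below 0 in the PY-minus-WT comparisons and above 0 for both knockouts within PY.

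Counted over the 8 members, libraries did not overlap for 3 higher and 1 lower in PY TGR5-KO against WT TGR5-KO, where 9.6% and 8.34% of all 15521 genes tested did not overlap in those directions. The counts were 5 and 1 in PY CYP7a1-KO against WT CYP7a1-KO (9.72% and 8.47% of all genes) and 4 and 2 in PY SLC45a2-KO against WT SLC45a2-KO (15% and 15.4%). Against SLC45a2-KO of the same background, 1 member was higher and 3 lower with TGR5-KO in PY (3.91% and 4.11% of all genes), and 1 higher and 3 lower with CYP7a1-KO in PY (3.43% and 3.78%). In WT, 0 were higher and 3 lower with TGR5-KO (7.71% and 7.47%), and 0 higher and 5 lower with CYP7a1-KO (8.89% and 11.7%). Nothing is read from these counts, because the members were chosen on them; hamp and hp passed the filter on low counts through their PY libraries. Comparisons with SLC45a2-KO of a background share its libraries.

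By the shape of the 6 group means of log2 CPM, each centred on its own mean, slc40a1 and fth1a were the closest pair of members, with a root-mean-square difference of 0.085. For hamp and hp, with 8 and 0 counts over all WT libraries, the WT part of the shape is set by the prior count of 2, so their distances and nearest genes describe the 3 PY groups and a floor, and no distance between them and other members is given. Among all tested genes with a mean of at least 5 CPM, those nearest to hamp were angptl6 (0.33) and itgb3a (0.48), to hp igfbp1a and noxo1a (both 0.41), to cp c3a.2 (0.25) and si:dkey-96g2.1 (0.31), and to meltf crygm4 (0.33) and enam (0.40). The median over all genes was 2.46 for hamp, 1.90 for hp, 2.01 for cp and 1.79 for meltf. For tfr2, the nearest were LOC566587 (0.155) and fosl2 (0.16), with a median over all genes of 0.99. For the flatter members, the nearest were CABZ01088274.1 and leg1.1 for tfa, rps27.1 and ggctb for slc40a1, and cmtr1 and BX248318.1 for fth1a.

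Beyond the members, 118 further genes of iron, copper and haem handling were read from 6 lists, and 97 of them were tested. These lists were also chosen with earlier results of these data known, so their shares and adjusted p are no independent check. With PY against WT, 16 rose and 9 fell with TGR5-KO (25.8% called, against 19.9% of all genes tested, of which 11.5% rose and 8.42% fell), 23 rose and 8 fell with CYP7a1-KO (32.0%, against 23.2%, 13.3% up and 9.93% down), and 25 rose and 10 fell with SLC45a2-KO (36.1%, against 35.6%, 17.9% up and 17.7% down). With SLC45a2-KO, the list as a whole was called about as often as all genes. The median log2 change of the 97 genes was 0.06 there, against -0.02 over all genes. The lists that are closest to the members, hepcidin control with 10 risen and 3 fallen of 24 and iron uptake, storage and export with 8 risen and 3 fallen of 21, held most of the calls. Mitochondrial iron and iron-sulfur cluster genes gave 1 call of 10, and haem synthesis 2 of 17.

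Among hepcidin control genes, those named as risen in PY include parts of inflammatory signalling. The ligand gene il6 was listed but did not pass the filter on low counts, so its change was not tested. The transcription factor cebpb rose to 155.4 ± 27.8 CPM in PY SLC45a2-KO, against 24.1 ± 2.62 CPM in WT SLC45a2-KO (log2 2.69 ± 0.20, edgeR adjusted p = 4.32e-15). The IL-6 receptor il6r averaged 21.2 ± 4.70 CPM in PY SLC45a2-KO, against 4.80 ± 2.30 CPM in WT SLC45a2-KO (2.13 ± 0.32, adjusted p = 3.87e-07). A feedback inhibitor of the STAT3 pathway, socs3b, averaged 22.5 ± 4.13 CPM, against 5.28 ± 2.19 CPM, in the same groups (2.08 ± 0.31, adjusted p = 2.7e-07). These genes also serve other tissues and pathways, so their levels in whole larvae are not specific to the liver. The BMP target gene id1 fell to 42.9 ± 8.04 CPM in PY SLC45a2-KO, against 91.0 ± 9.11 CPM in WT SLC45a2-KO (-1.08 ± 0.16, adjusted p = 3.24e-07). The BMP ligand bmp6, below the level set for naming and picked after its values were seen, rose to 6.65 ± 2.56 CPM, against 2.62 ± 1.42 CPM (1.32 ± 0.48, adjusted p = 0.0274), a call that was not recomputed with libraries left out.

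Among iron uptake genes, the metalloreductase steap4 rose to 124 ± 39.9 CPM in PY SLC45a2-KO, against 12.1 ± 3.48 CPM in WT SLC45a2-KO (3.36 ± 0.25, adjusted p = 8.85e-14). Of the zebrafish transferrin receptor 1 genes, tfr1b averaged 77.9 ± 9.70 CPM in PY SLC45a2-KO, against 9.53 ± 4.09 CPM in WT SLC45a2-KO (3.04 ± 0.38, adjusted p = 1.07e-06). Its levels lay closer together with the other guides, at 50.5 ± 16.01 CPM in PY TGR5-KO against 33.2 ± 10.7 CPM in WT TGR5-KO, and at 61.4 ± 15.4 CPM in PY CYP7a1-KO against 16.03 ± 9.86 CPM in WT CYP7a1-KO. The ferritin autophagy receptor ncoa4 fell to 25.9 ± 5.27 CPM in PY SLC45a2-KO, against 39.3 ± 3.54 CPM in WT SLC45a2-KO (-0.60 ± 0.17, adjusted p = 0.00403). In PY TGR5-KO the iron importer slc11a2 fell to 33.8 ± 5.58 CPM, against 60.5 ± 3.69 CPM in WT TGR5-KO (-0.84 ± 0.18, adjusted p = 5e-04).

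Of 11 copper genes, 1 rose and 2 fell in PY against WT with SLC45a2-KO, or 27.3%, against 35.6% of all genes tested; the other 8 did not pass. The copper exporter atp7a, which loads copper into secreted enzymes, rose to 17.5 ± 3.84 CPM in PY SLC45a2-KO, against 3.95 ± 1.25 CPM in WT SLC45a2-KO (2.14 ± 0.29, adjusted p = 3.38e-08). With TGR5-KO it averaged 6.85 CPM in PY and 8.54 CPM in WT, and with CYP7a1-KO 9.93 and 7.27 CPM. The chaperone cox17, which carries copper to cytochrome oxidase, fell to 5.48 ± 2.90 CPM in PY SLC45a2-KO, against 28.7 ± 3.02 CPM in WT SLC45a2-KO (-2.36 ± 0.34, adjusted p = 1.71e-06), and the copper-zinc superoxide dismutase sod1 fell to 85.5 ± 14.6 CPM, against 188 ± 20.03 CPM in the same groups (-1.13 ± 0.14, adjusted p = 4.45e-09). In CYP7a1-KO larvae, the copper importer slc31a1 averaged 39.7 ± 8.92 CPM in PY larvae, against 19.1 ± 2.92 CPM in WT (1.05 ± 0.18, adjusted p = 2.07e-05). With TGR5-KO it averaged 52.3 CPM in PY and 47.3 CPM in WT, and with SLC45a2-KO 34.6 and 36.1 CPM.

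With SLC45a2-KO, 4 of 14 haem breakdown and transport genes rose and 1 fell, which is 35.7% and about the 35.6% of all genes tested. The endosomal haem transporter slc48a1a rose to 43.2 ± 4.73 CPM in PY SLC45a2-KO, against 11.9 ± 4.57 CPM in WT SLC45a2-KO (1.86 ± 0.24, adjusted p = 9.64e-09). With TGR5-KO it averaged 24.0 CPM in PY and 7.06 CPM in WT, but with CYP7a1-KO 18.3 and 20.9 CPM. The endocytic receptor lrp1ab, whose mammalian form takes up haem bound to haemopexin, averaged 301 ± 24.4 CPM in PY SLC45a2-KO, against 79.5 ± 10.7 CPM in WT SLC45a2-KO (1.92 ± 0.18, adjusted p = 5.94e-12). Its paralog lrp1aa did not share this rise, at 79.35 ± 11.8 CPM in PY SLC45a2-KO and 83.46 ± 7.04 CPM in WT SLC45a2-KO. In CYP7a1-KO larvae, the haem synthesis enzyme cpox averaged 22.1 ± 6.88 CPM in PY, against 6.01 ± 3.16 CPM in WT (1.86 ± 0.27, adjusted p = 7.2e-07). Its mean was 20.01 CPM in PY and 25.33 CPM in WT with TGR5-KO, and 21.14 and 20.38 CPM with SLC45a2-KO. Only WT CYP7a1-KO was low. The first and rate-setting enzyme, alas1, fell with CYP7a1-KO to 370 ± 42.4 CPM in PY, against 653 ± 87.8 CPM in WT (-0.82 ± 0.16, adjusted p = 9.86e-05).

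**Figure D3:**
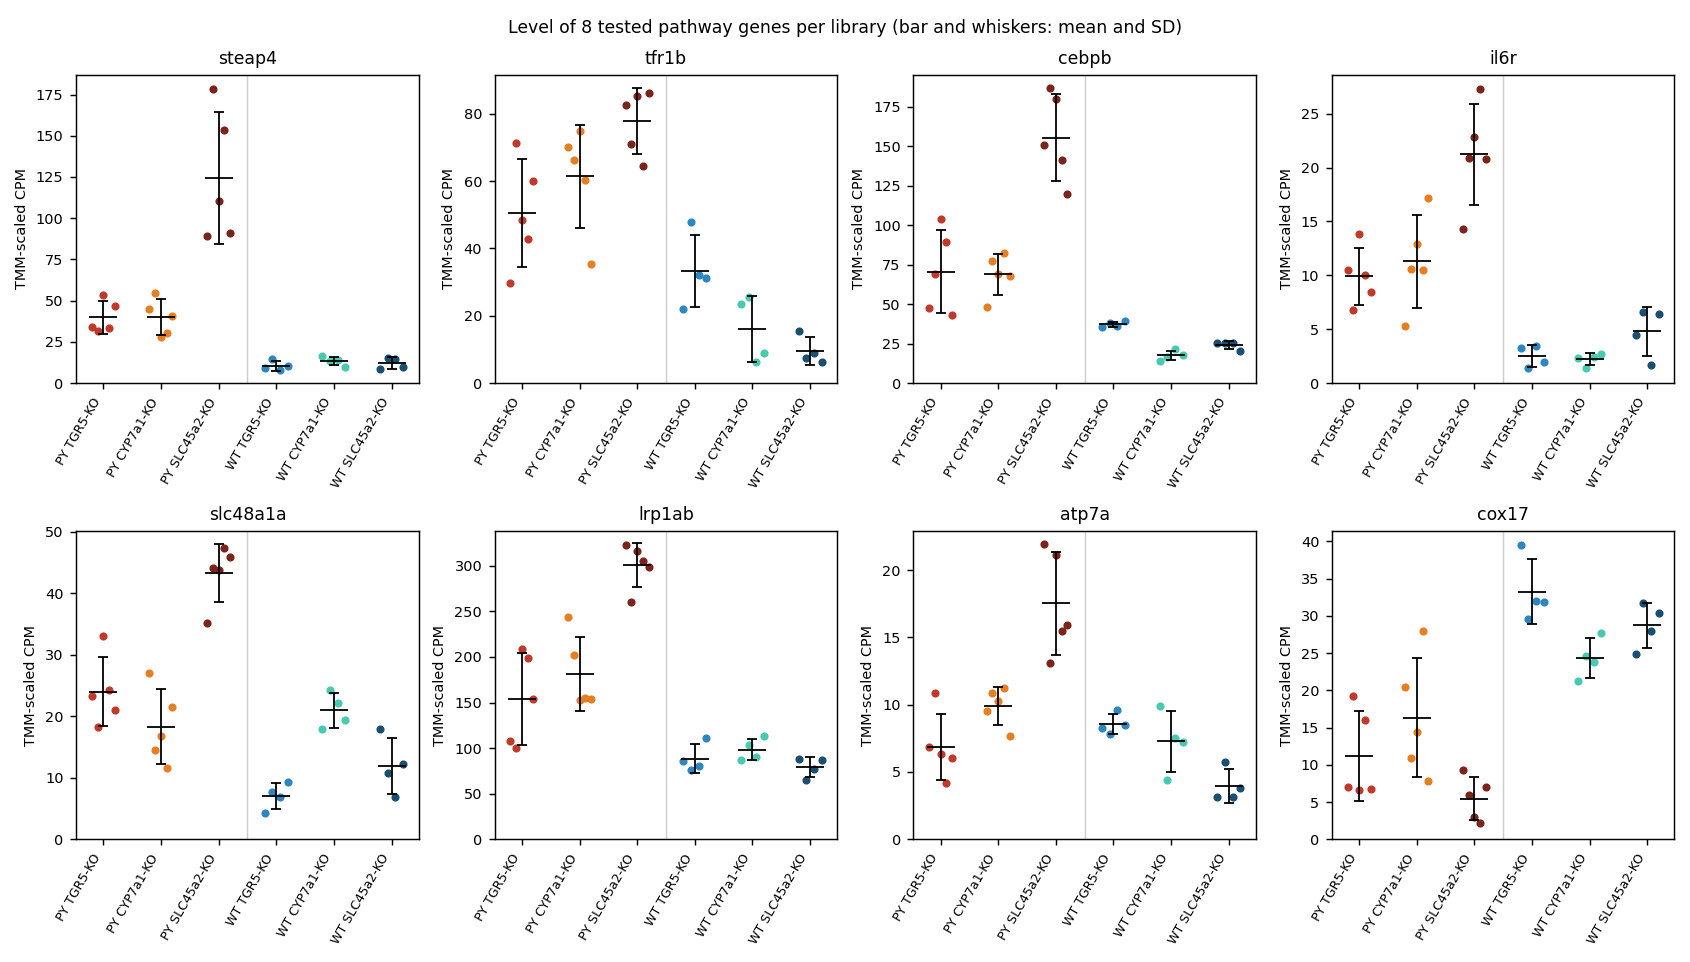
Level of 8 tested genes outside the members in every library, in TMM-scaled CPM on linear axes that start at 0, with groups along the horizontal axis and a bar with whiskers for the mean and SD. Both PY knockout groups lie below PY SLC45a2-KO for steap4, cebpb, slc48a1a, lrp1ab and atp7a, as in steap4 with 39.8 ± 9.80 and 39.9 ± 10.96 CPM against 124 ± 39.9 CPM.

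In PY, most called genes were lower in the knockouts. With TGR5-KO in PY, 3 rose and 15 fell of 97 (18.6% called, against 11.4% of all genes tested, 6.34% up and 5.01% down), and with CYP7a1-KO in PY 5 rose and 16 fell (21.6%, against 13.4%, 7.49% up and 5.9% down). Hepcidin control genes gave 0 rises and 7 falls of 24 with TGR5-KO and 1 rise and 6 falls with CYP7a1-KO. Both comparisons use the same PY SLC45a2-KO libraries. The metalloreductase steap4 fell to 39.8 ± 9.80 CPM in PY TGR5-KO and to 39.9 ± 10.96 CPM in PY CYP7a1-KO, against 124 ± 39.9 CPM in PY SLC45a2-KO, which is -1.65 ± 0.21 in each case (adjusted p = 6.98e-07 with TGR5-KO and 5.57e-07 with CYP7a1-KO).

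The level of cebpb fell to 70.5 ± 26.1 CPM in PY TGR5-KO and 68.9 ± 13.1 CPM in PY CYP7a1-KO, against 155.4 ± 27.8 CPM in PY SLC45a2-KO (-1.14 ± 0.17, adjusted p = 5.9e-06, and -1.17 ± 0.17, adjusted p = 3.35e-06). For socs3a, a second inhibitor of STAT3 signalling, the levels were 28.7 ± 11.96, 25.9 ± 9.63 and 59.2 ± 8.38 CPM in the same order, and both falls passed (adjusted p = 0.00351 and 8.68e-04). The haem transporter slc48a1a fell to 24.0 ± 5.56 CPM with TGR5-KO and 18.3 ± 6.09 CPM with CYP7a1-KO, against 43.2 ± 4.73 CPM (adjusted p = 0.00399 and 3.36e-05). The enzyme alas1 fell to 352 ± 106 and 370 ± 42.4 CPM, against 592 ± 139 CPM (adjusted p = 4.18e-04 and 0.00125). Going the other way, sod1 rose to 129 ± 10.1 CPM in PY TGR5-KO, against 85.5 ± 14.6 CPM in PY SLC45a2-KO (0.60 ± 0.13, adjusted p = 0.00139).

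In WT, 4 rose and 5 fell of the 97 genes with TGR5-KO (9.28% called, against 6.49% of all genes tested, 3.1% up and 3.4% down), and 2 rose and 8 fell with CYP7a1-KO (10.3%, against 11.6%, 4.14% up and 7.48% down). The first count was 15 when the fit held the WT TGR5-KO and WT SLC45a2-KO groups alone. Over all genes, that fit gave 1900 calls, against 1008 in the fit to all libraries. Fits to the compared groups alone gave 2993 calls against 1804 for CYP7a1-KO in WT. In PY they gave fewer, 1501 against 1762 for TGR5-KO and 1355 against 2079 for CYP7a1-KO. Shares called in PY and in WT therefore depend on the fit and are not compared. The haem exporter flvcr1 rose to 42.8 ± 7.30 CPM in WT TGR5-KO, against 7.95 ± 3.03 CPM in WT SLC45a2-KO (2.43 ± 0.36, adjusted p = 3.33e-05), and tfr1b rose to 33.2 ± 10.7 CPM, against 9.53 ± 4.09 CPM (1.81 ± 0.39, adjusted p = 0.005). In WT CYP7a1-KO, cpox fell to 6.01 ± 3.16 CPM, against 20.4 ± 3.67 CPM (-1.74 ± 0.28, adjusted p = 1.87e-05), and slc31a1 fell to 19.1 ± 2.92 CPM, against 36.1 ± 4.54 CPM (-0.92 ± 0.19, adjusted p = 6.51e-04). The ferritin-like gene fthl31, which has close paralogs among which reads could be split, rose to 10.6 ± 1.74 CPM there, against 2.78 ± 0.64 CPM (1.92 ± 0.44, adjusted p = 0.00237).

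**Figure D4:**
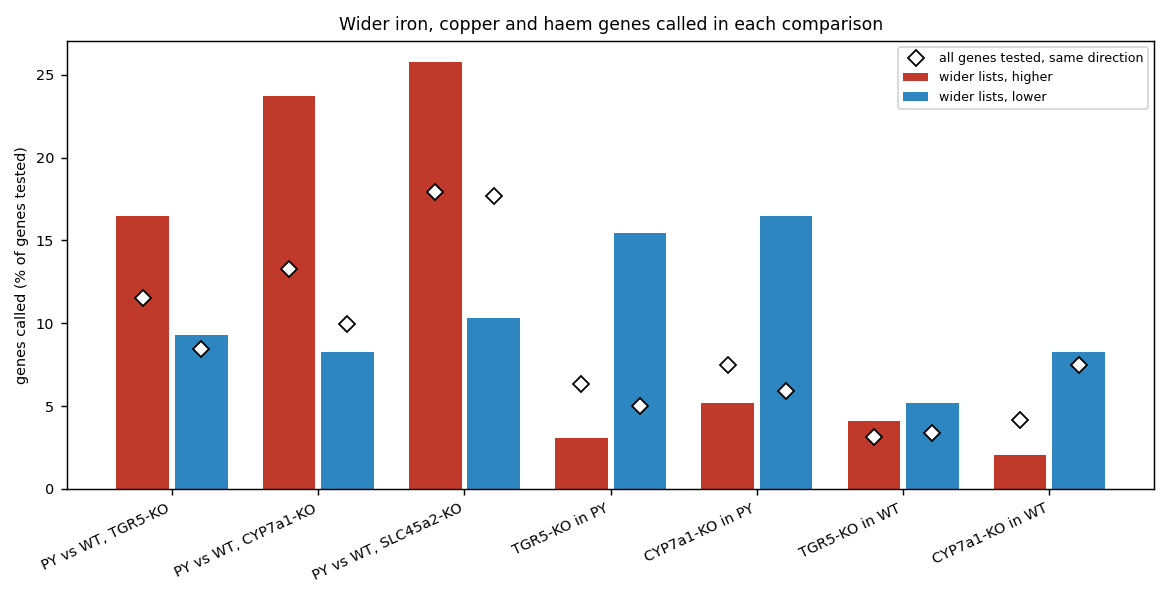
Share of the 97 tested genes of the wider lists called by edgeR at an adjusted p of 0.05 (bars, in %, higher and lower drawn side by side) in each comparison along the horizontal axis, with diamonds for the share of all 15521 genes tested in the same direction. In PY, the bars of fallen genes lie above their diamonds for both knockouts, and with PY against WT in SLC45a2-KO larvae the bar of risen genes is above its diamond and that of fallen genes below.

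The change with a knockout differed between backgrounds for 1 higher and 6 lower genes with TGR5-KO (7.22% called, against 6.7% of all genes tested, 3.94% up and 2.76% down) and for 9 higher and 6 lower with CYP7a1-KO (15.5%, against 17.8%, 10.8% up and 6.98% down). The interaction, the change in PY minus that in WT, was -2.45 ± 0.39 for atp7a with TGR5-KO (adjusted p = 3.36e-05) and -1.69 ± 0.39 with CYP7a1-KO (adjusted p = 0.00153). It was -1.76 ± 0.27 for cebpb (adjusted p = 1.5e-05) and -2.43 ± 0.50 for tfr1b (adjusted p = 0.00331), both with TGR5-KO. With CYP7a1-KO it was -2.06 ± 0.32 for slc48a1a (adjusted p = 8.06e-06), -1.78 ± 0.33 for steap4 (adjusted p = 1.83e-04) and 1.80 ± 0.36 for cpox (adjusted p = 3.33e-04).

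Markers of the cells that make or use these proteins also differed between groups, and in bulk larvae fewer cells of a type and less RNA per cell cannot be told apart. The 10 hepatocyte markers summed to 16090 to 19610 CPM in PY TGR5-KO, 11040 to 20400 CPM in PY CYP7a1-KO and 16010 to 21680 CPM in PY SLC45a2-KO, against 11450 to 14010, 7050 to 7506 and 10760 to 14100 CPM in WT TGR5-KO, WT CYP7a1-KO and WT SLC45a2-KO; none was at 0. In PY the hepatocyte sum was carried mostly by apoa2 and fabp10a. Of the 10, 6 rose and 3 fell in PY against WT with SLC45a2-KO, where 35.6% of all genes tested were called. In these larvae ahsg2 had a lower mean in PY, at 16.13 against 671.1 CPM in WT. So had fetub (787.3 against 2113 CPM) and rbp4 (142.6 against 449.2 CPM), so the list did not rise as a whole. In WT CYP7a1-KO, the group in which cp and tfa were lowest, 0 rose and 8 fell (11.6% of all genes). The 7 erythroid markers summed to 256 to 1626, 251 to 1636 and 296 to 635 CPM in the PY groups, in the order TGR5-KO, CYP7a1-KO and SLC45a2-KO, against 3709 to 5180, 1825 to 2799 and 4330 to 5537 CPM in the WT groups in the same order. The erythroid factor gata1a was at 0 in every group. With PY against WT in SLC45a2-KO larvae 2 erythroid markers rose and 3 fell of 6 tested, against 17.9% of all genes up and 17.7% down. Haemoglobin genes hbba1 and hbaa1 carried most of the sum. In these larvae hbba1, hbaa1, hbaa2 and slc4a1a had lower means in PY. By contrast, klf1 (10.2 against 4.11 CPM) and epb41b (41.7 against 24.3 CPM) had higher means in PY, so the list did not move as a whole. The 8 macrophage markers summed to 132 to 151.7, 124 to 221 and 143.8 to 207 CPM in PY, against 138 to 163.8, 245 to 302 and 208 to 228 CPM in WT, in the same order, with mpeg1.1 at 0 in all groups but WT SLC45a2-KO. The macrophage sum follows lgmn, its largest part in every group, whose mean was lower in PY with each set of guides. With SLC45a2-KO, marco was higher in PY, at 18.3 ± 4.59 against 5.48 ± 1.71 CPM in WT. So was spi1b, at 26.8 ± 8.66 against 9.25 ± 1.4 CPM. Of 7 macrophage markers tested in PY against WT, 2 rose and 1 fell with SLC45a2-KO (35.6% of all genes tested were called). With TGR5-KO 3 rose and 0 fell (19.9% of all genes), and with CYP7a1-KO 1 rose and 2 fell (23.2% of all genes). The part of the hepatocyte, erythroid and macrophage markers in the members' values was not tested.

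**Figure D5:**
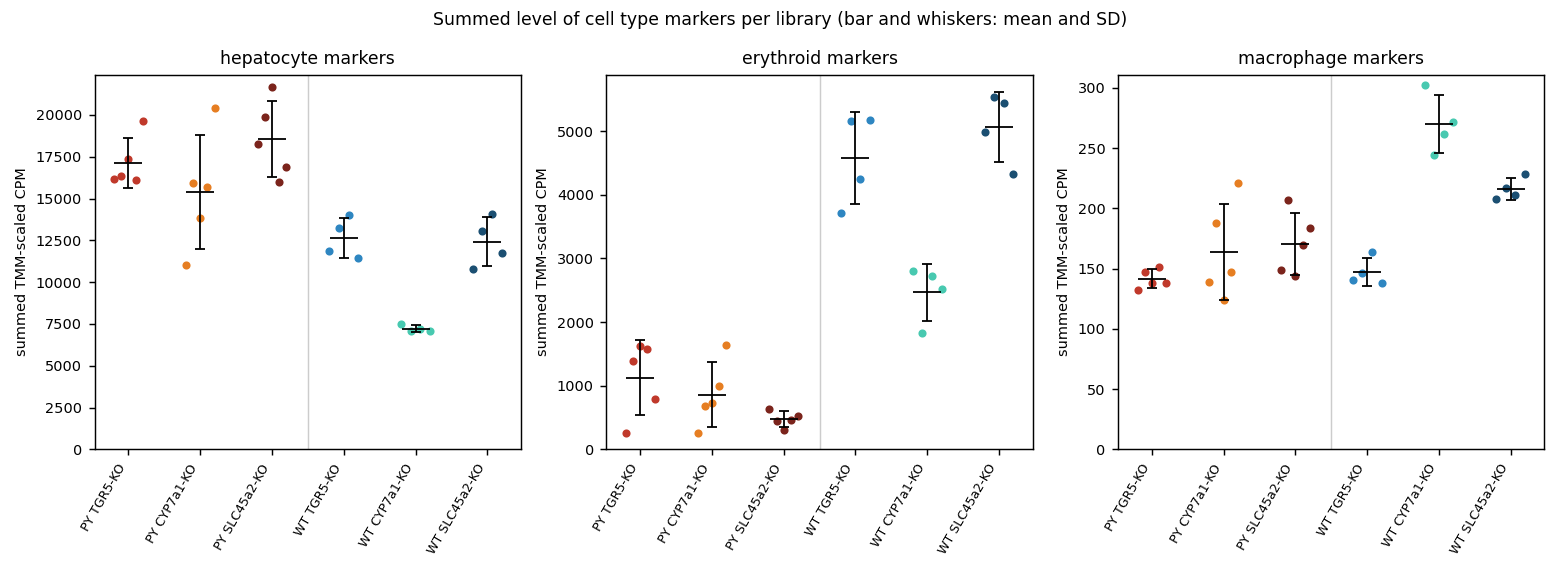
Summed level of hepatocyte, erythroid and macrophage markers in every library, in TMM-scaled CPM on linear axes that start at 0, with groups along the horizontal axis and a bar with whiskers for the mean and SD. Erythroid sums of all PY libraries lie below those of all WT libraries, and hepatocyte sums are lowest in WT CYP7a1-KO, at 7050 to 7506 CPM. Erythroid sums are carried mostly by hbba1 and hbaa1, and apoa2 is the largest part of hepatocyte sums, so single markers can differ from the sum.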

How the data were processed

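Libraries of larval total RNA were prepared with Lexogen QuantSeq, per the labels' protocols. Raw read counts per gene stand in 27 columns of the deposited table, per the labels, and none of them was left out. A further set of columns holds CPM as the authors deposited it; count over column total gave the same values within 5e-04. The submitters' processing notes name GRCz11 and danRer10 without a role. Neither aligner, counter, annotation nor molecular identifiers could be read from the sources used here, and no coordinates are printed. The mitochondrial genome entry, with 23.3 to 35.7% of a library's counts, was kept. Groups came from sample titles.

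The counts were fitted in edgeR 4.0.16 (R 4.3.3) with TMM factors of 0.910 to 1.07, the package's expression filter, which kept 15521 genes, a mean for each group across 27 libraries, robust quasi-likelihood and p-values adjusted by Benjamini-Hochberg over all genes at 0.05. The scripts were tested on simulated data. The common biological coefficient of variation was 0.264, and chi-square per degree of freedom between libraries of a group was 4.36 to 22.9, so no library was treated as a repeat. There were 7 comparisons between groups and 2 interactions.

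The members, the gene lists and the tests were chosen with earlier results of these data known. Of 124 pathway symbols, 118 matched. For each list and comparison, the rule named up to 3 called genes per direction by size of change, provided their mean reached 5 CPM and, outside interactions, the groups did not overlap; the text gives part of these. Alternatives were RLE factors, TMM from genes each under 1% of counts, no filter on low counts, a stricter filter (5 CPM in 4 libraries), no robust estimation, a fit to the compared groups alone, a block for the replicate number, the mean of the 3 WT groups, DESeq2 1.42.0, and leaving out each library, or PY CYP7a1-KO libraries 1 and 2 together. Library sizes without the mitochondrial entry were added after seeing the data. Sequences and promoter motifs were not analysed here.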

Additional observations from a re-analysis of the deposited data

Results flagged for a closer look

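Dixon's criterion flags a library far from the rest of its group, by chance alone in about 1 in 20 groups of normally distributed values. In 5 of the 44 groups of libraries with a spread, a library met it. These were hp in PY TGR5-KO library 3 (25.2 CPM, the others 1.58 to 4.29), slc40a1 in PY TGR5-KO library 5 (171 CPM, the others 71.6 to 94.6), fth1a in PY SLC45a2-KO library 3 (783 CPM, the others 705 to 722) and in WT SLC45a2-KO library 3 (968 CPM, the others 868 to 877), and hamp in WT SLC45a2-KO library 1 (0.224 CPM, a single count, the others 0). A lone count among libraries at 0, as for hamp, always meets the criterion, so the chance rate does not apply there. For meltf, all CYP7a1-KO libraries lay above SLC45a2-KO in PY and below it in WT, a difference in log2 change of 2.13 that was not tested.

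Knockout changes of listed genes differed between PY and WT by edgeR's interaction test for 7 genes with TGR5-KO and 15 with CYP7a1-KO, of which the rule for naming takes 7 and 14. The remaining gene with CYP7a1-KO is the haem oxygenase hmox1a (2.41, adjusted p = 0.00414), whose mean is below the level set for naming and whose call was not recomputed with libraries left out. With TGR5-KO the differences were -2.43 for tfr1b, -1.44 for steap4 (adjusted p = 0.00543), -1.47 for cebpa (adjusted p = 0.0125), -1.76 for cebpb, -2.45 for atp7a, 0.87 for sod1 (adjusted p = 0.00295) and -1.12 for lrp1ab (adjusted p = 0.00184). With CYP7a1-KO they were -1.78 for steap4, -2.64 for fthl31 (adjusted p = 0.00106), 1.23 for cebpa (adjusted p = 0.0217), 1.11 for slc31a1 (adjusted p = 0.00147), -1.69 for atp7a, 1.79 for cox17 (adjusted p = 0.00700), 1.80 for cpox, -2.06 for slc48a1a and -1.04 for lrp1ab (adjusted p = 0.00169).

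The other 5 with CYP7a1-KO passed narrowly and lost the call when some single libraries were left out. For sod1 (0.61, adjusted p = 0.0248) the value was 0.51 without PY SLC45a2-KO library 4, 0.57 without WT CYP7a1-KO library 3 or 4 and 0.54 without WT SLC45a2-KO library 3. For flvcr1 (1.63, adjusted p = 0.0217) it was 1.499 without WT CYP7a1-KO library 2, 1.51 without library 4 of that group and 1.33 without WT SLC45a2-KO library 2. For slc25a39 (1.17, adjusted p = 0.0204) it was 1.02 without WT CYP7a1-KO library 1 and 1.03 without WT SLC45a2-KO library 1. For cebpd (0.71, adjusted p = 0.0274) it was 0.66 without PY CYP7a1-KO library 4, 0.64 without PY SLC45a2-KO library 4 or 5, 0.56 without WT CYP7a1-KO library 1, 0.69 without WT SLC45a2-KO library 3 and 0.66 without library 4 of that group. For cybrd1 (-1.56, adjusted p = 0.0488) the call was lost in 12 of 18 such fits, over which the value was -1.99 to -1.34.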

How the results depend on the processing

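Each member value or count of pathway genes below was recomputed under the listed alternatives. With only the groups compared in the fit, TGR5-KO in WT gave 15 calls, where the fit to all libraries gave 9. Over all genes, the same fits gave 1900 and 1008 calls. Calls over all genes also rose for CYP7a1-KO in WT and fell for both knockouts in PY when only the groups compared were fitted. The cause was not tested. The other counts stayed within 1.5 times in the alternatives run, the largest being 47 with the mean of the 3 WT groups for PY against WT in SLC45a2-KO larvae (34 higher, 13 lower). Over all genes, that mean gave 6606 calls, against 5531 with WT SLC45a2-KO as the reference. Leaving out single libraries gave 21 to 27, 27 to 34 and 29 to 35 for PY against WT with TGR5-KO, CYP7a1-KO and SLC45a2-KO, 15 to 19 for TGR5-KO in PY, 16 to 23 for CYP7a1-KO in PY, 6 to 9 and 7 to 11 for the same knockouts in WT, and 7 to 8 and 12 to 18 for the interactions. With the replicate block the same 9 counts were 26, 32, 33, 18, 23, 10, 12, 9 and 17; same-numbered libraries did not deviate together (30 pairs, r -0.104 to 0.0462), and the best match of a library had its own number in 5 of 27 cases, so the numbers do not pair libraries. No direction with a call reversed. Of the member values, 1371 moved by less than the spread between libraries and 12 moved more, in hamp, hp, cp, tfa (0.31 against the mean of the 3 WT groups) and fth1a. Of 104 named pathway changes, 80 passed in every alternative. Members with few counts (hamp, hp and tfr2) are limited by depth.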

Other observations

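Markers of other tissues were also summed, with no test of their part in the members' values. The 4 enterocyte markers averaged 212 ± 60.97 CPM in PY TGR5-KO, 187 ± 60.2 CPM in PY CYP7a1-KO and 178 ± 41.7 CPM in PY SLC45a2-KO, against 435 ± 53.4, 139 ± 20.5 and 237 ± 25.9 CPM in WT TGR5-KO, WT CYP7a1-KO and WT SLC45a2-KO. Of these, fabp2 was at 0 in every group, and apoa4a held 273 CPM in WT TGR5-KO. With SLC45a2-KO, apoa4a averaged 131 CPM in PY and 77.7 CPM in WT, while vil1 (29.0 and 124.5 CPM) and cdx1b (17.9 and 34.5 CPM) were lower in PY. The 4 muscle markers averaged 27890 ± 3249, 31130 ± 3224 and 18650 ± 2665 CPM in the same PY groups, against 23980 ± 3358, 29450 ± 3953 and 29220 ± 2370 CPM in the same WT groups. These sums came from tnnt3b and actc1b, since mylpfa and ckma were near or at 0 throughout. The 4 neutrophil markers averaged 30.3 ± 8.19, 36.5 ± 5.88 and 56.9 ± 39.6 CPM in PY, against 38.1 ± 8.10, 40.6 ± 6.97 and 43.4 ± 6.45 CPM in WT. Among them lyz was at 0 in every group, and PY SLC45a2-KO library 2 was the highest of its group, at 120.8 CPM.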
